A study of Drosophila melanogaster with 7 samples.

Results

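Of the 15551 fly genes in the deposited gene table, 10 chaperone genes were taken by symbol, and all 10 had a value in each of the 6 libraries and passed the filter on low values. They were 7 small heat shock protein genes (Hsp22, Hsp23, Hsp26, Hsp27, Hsp67Ba, Hsp67Bc and l(2)efl), Hsp68 of the Hsp70 family, Hsp83 (the fly Hsp90 gene) and Hsc70-3 (the gene of BiP, the Hsp70 of the endoplasmic reticulum). The study sequenced nuclear RNA from heads of adult Drosophila melanogaster in which a GAL4 line drove a GFP-tagged nuclear envelope protein, unc84-GFP, so that tagged nuclei could be caught on antibody-coated beads. OK107-GAL4 tags primarily Kenyon cells, which build the mushroom body, the fly's centre for odour memory. Tdc2-GAL4 tags primarily octopaminergic neurons. R57C10-GAL4 tags all mature neurons. The last group was a whole dissected adult brain with all of its cells, which carries no tag in the labels and is labelled as nuclear RNA too. Sex, age in days and rearing temperature are not given in the sources used here, and no heat treatment is named for any group. The gene table held 2 OK107 libraries, named a and b here, as well as 2 from Tdc2 under the same letters. It held 1 whole brain library and 1 R57C10 library, although the labels name 2 R57C10 samples.

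Chaperones keep other proteins from clumping while they fold, unfold or are moved between compartments. Small heat shock proteins share a crystallin domain and hold unfolding proteins without spending ATP, and Hsp70 proteins then refold them with the help of J proteins. Hsp90 finishes the folding of kinases and receptors, and BiP folds proteins that enter the secretory pathway. Several small heat shock genes are strongly induced by heat through the heat shock factor Hsf, while others are also switched on in development, in ageing or in particular tissues without stress.

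The annotation places Hsp67Bc, Hsp22, Hsp26, Hsp67Ba, Hsp23 and Hsp27 close together on chromosome arm 3L of the RefSeq Release 6 assembly, inside an intron of the glucose transporter gene Glut1 (CG1086). Hsp83 lies elsewhere on arm 3L, l(2)efl on arm 2R, Hsp68 on arm 3R and Hsc70-3 on the X chromosome. Nuclear RNA holds unspliced transcripts, so the level of Glut1 stands beside those of the 6 genes in its intron. Glut1 was at 212 and 217 FPKM in OK107 a and b, 136 and 174 FPKM in Tdc2 a and b, 313 FPKM in R57C10 and 48.5 FPKM in whole brain (FPKM, fragments per kilobase of transcript scaled for sequencing depth, let levels of different genes be compared per length). The library with the highest Glut1 level, R57C10, was the lowest for Hsp23, Hsp27, Hsp67Ba and Hsp67Bc, and whole brain, with the least Glut1, had the most Hsp67Bc. Hsp22, like Glut1, was lowest in whole brain and higher in R57C10 than in Tdc2, but it was highest in OK107, and Hsp26 varied little outside OK107. Whether reads of Glut1 entered the values of these genes was not tested. Exons of Hsp68, l(2)efl and Hsp83 overlap genes on the opposite strand (CG6000, St3 and CG14966). Exons of Hsp27 and Hsp68 also overlap the noncoding genes CR43483 and CR44097, which were not analysed here, and an exon of Hsp67Ba overlaps CR43481, listed at 0 in all 6 libraries. Since no strand is stated for the counting, reads from the overlaps cannot be told apart.

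Depth, estimated from the steps between low FPKM values, ranged over the libraries from 24.8 M reads (Tdc2 a) to 62.6 M reads (whole brain). By the same rough estimate, taken over the shortest transcript of each gene, each member rested on about 49 reads or more in every library. For l(2)efl these were about 49 to 106 reads, and for Hsc70-3 about 17803 to 81606. Labels were checked against marker genes by summed FPKM. The 5 Kenyon cell markers summed to 1681 and 1712 in OK107, 389 and 370 in Tdc2, 713 in R57C10 and 602 in whole brain. Of the 3 octopaminergic markers 2 had values, and these summed to 1778 and 2250 in Tdc2 against 19.4 to 41.0 in the other libraries. Neuron markers (2 of 4 with values) summed to 1199 and 1154 in OK107, 1711 and 1433 in Tdc2, 1373 in R57C10 and 1272 in whole brain. Of these 2 markers 1 was higher in R57C10 than in whole brain and the other did not pass, so they check the R57C10 label only weakly. Other cell types moved with the groups as well. Fat body markers (6 of 6 with values) summed to 127 and 124 in OK107, 6521 and 5774 in Tdc2, 461 in R57C10 and 4522 in whole brain. Glial markers (7 of 8 with values) summed to 203 and 210 in OK107, 437 and 515 in Tdc2, 93.6 in R57C10 and 3269 in whole brain. No marker with values was at 0 in a library. In such bulk samples fewer cells of a type and less RNA per cell cannot be told apart. All libraries but OK107 a and Tdc2 a held spike-in RNA, and by the dates in their column names both OK107 libraries and Tdc2 a form an earlier set and the other 3 a later one.

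Differences between groups are given below as log2 differences of FPKM + 1, the group named earlier minus the other, with the standard error of the limma fit and a p-value adjusted by Benjamini-Hochberg over all genes tested. A difference passed where this adjusted p was under 0.05. OK107 and Tdc2 have 2 libraries each, R57C10 and whole brain have only 1 library, whose spread is taken to equal that of the pairs, so the p-values measure only the spread between these samples. Within the OK107 pair the median size of the log2 gap was 0.12 over the members and 0.085 over all genes tested, and within the Tdc2 pair it was 0.21 over the members and 0.22 over all genes.

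**Figure D1:**
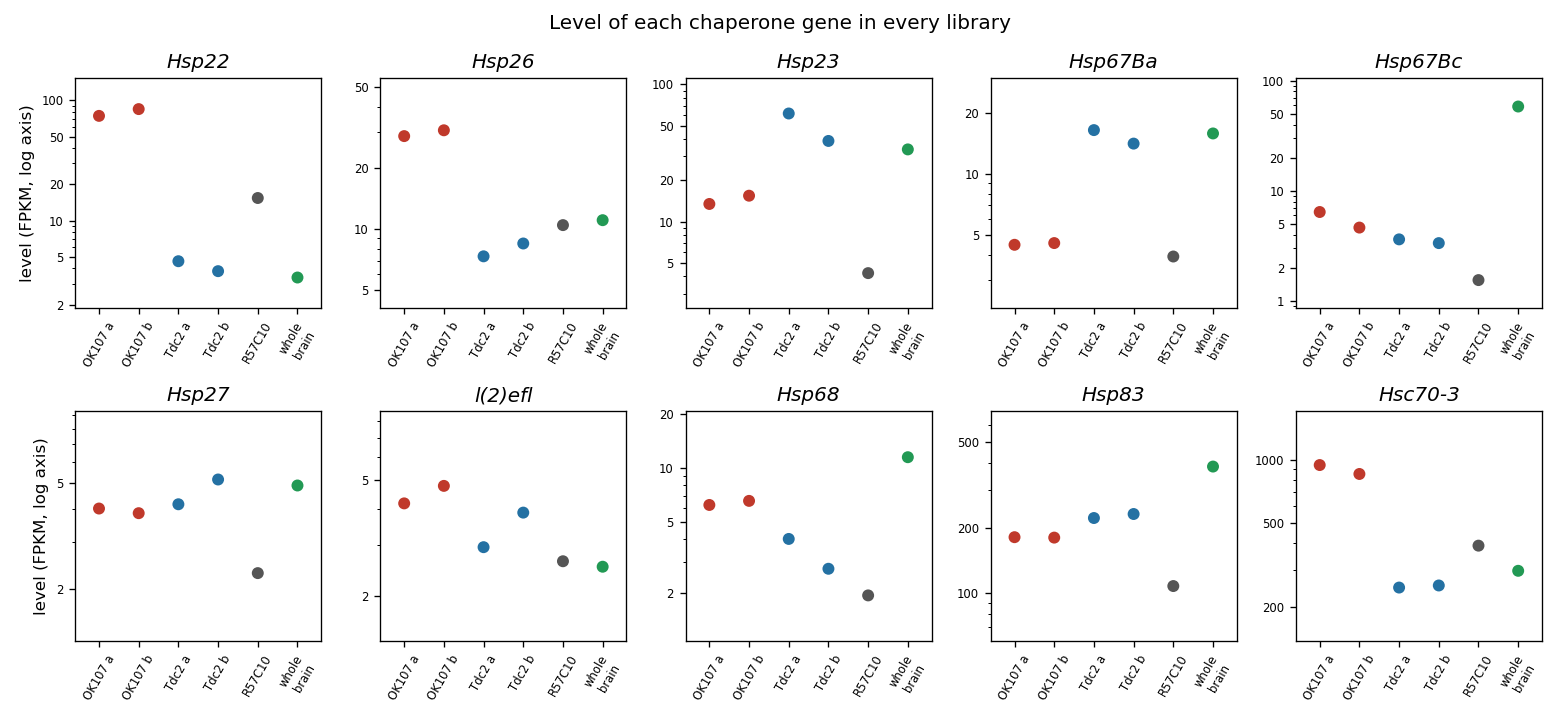
Level of each of the 10 genes (FPKM, log axis) in every library, with OK107 in red, Tdc2 in blue, R57C10 in grey and whole brain in green, and each point a library. Hsp22, Hsp26 and Hsc70-3 are highest in the 2 OK107 libraries, Hsp23 and Hsp67Ba are high in Tdc2 and whole brain, and Hsp67Bc is highest in whole brain at 58.3 FPKM.

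Hsp22 (CG4460), whose protein works in the mitochondrial matrix, was the small heat shock gene with the most RNA in Kenyon cell nuclei. It was at 74.4 and 84.7 FPKM in OK107, 4.60 and 3.80 FPKM in Tdc2, 15.4 FPKM in R57C10 and 3.36 FPKM in whole brain. Both OK107 libraries lay far above all others, R57C10 stood alone in the middle, and the Tdc2 pair and whole brain lay close together at the bottom. The mean of OK107 was 18.9 times that of Tdc2 and 23.6 times that of whole brain. On the log2 scale OK107 was higher than R57C10 by 2.29 (SE 0.17, adjusted p = 0.00373), than Tdc2 by 3.95 (SE 0.13, adjusted p = 0.00036) and than whole brain by 4.20 (SE 0.17, adjusted p = 0.000358). Of all genes tested, 99.9% had a smaller difference between OK107 and Tdc2. Tdc2 was lower than R57C10 (-1.66, SE 0.17, adjusted p = 0.00328), and R57C10 was higher than whole brain (1.91, SE 0.20, adjusted p = 0.00186). Tdc2 and whole brain did not differ beyond their spread (0.25, SE 0.17, adjusted p = 0.264), although with Tdc2 b left out the difference of 0.36 passed. An exon of Hsp22 overlaps CG4456 (Hsp67Bb in the table), which was at 0.0585 to 0.198 FPKM in the libraries of tagged nuclei and listed at 0 in whole brain.

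Hsp26 (CG4183), a heat-inducible cytosolic protein whose gene is also expressed in development and ageing, followed Hsp22 in OK107 but not elsewhere. Its levels were 28.7 and 30.6 FPKM in OK107, 7.35 and 8.49 FPKM in Tdc2, 10.5 FPKM in R57C10 and 11.1 FPKM in whole brain. The OK107 pair was separate from the other 4 libraries, which lay in a narrow band. OK107 was higher than R57C10 by 1.42 (SE 0.15, adjusted p = 0.00638), than Tdc2 by 1.78 (SE 0.12, adjusted p = 0.0013) and than whole brain by 1.34 (SE 0.15, adjusted p = 0.00206). None of the differences among Tdc2, R57C10 and whole brain passed: Tdc2 minus R57C10 was -0.36 (SE 0.15, adjusted p = 0.121), Tdc2 minus whole brain -0.44 (SE 0.15, adjusted p = 0.0618) and R57C10 minus whole brain -0.07 (SE 0.18, adjusted p = 0.741). Without Tdc2 b, Tdc2 passed as lower than R57C10 (-0.46) and lower than whole brain (-0.53), and against whole brain it also passed without Tdc2 a and with the date as a covariate (-0.35 in both). Under median centring Tdc2 minus R57C10 passed at -0.51.

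Hsp23 (CG4463), a cytosolic small heat shock protein, ran the other way between the selective lines. It was at 13.5 and 15.5 FPKM in OK107, 61.3 and 38.7 FPKM in Tdc2, 4.23 FPKM in R57C10 and 33.6 FPKM in whole brain. R57C10 was the lowest library and the OK107 pair came next, while Tdc2 a was highest and whole brain lay just under Tdc2 b. The gap within the Tdc2 pair, -0.65 on the log2 scale (b minus a), was larger than that of 92.6% of all genes. Tdc2 was higher than R57C10 by 3.25 (SE 0.29, adjusted p = 0.00272), 11.8 times in FPKM. OK107 was higher than R57C10 by 1.56 (SE 0.29, adjusted p = 0.0216) and lower than Tdc2 (-1.69, SE 0.23, adjusted p = 0.00596) and whole brain (-1.16, SE 0.29, adjusted p = 0.0219). R57C10 was lower than whole brain (-2.73, SE 0.33, adjusted p = 0.00275), and Tdc2 did not differ from whole brain beyond the spread (0.52, SE 0.29, adjusted p = 0.176). OK107 against R57C10 did not pass without OK107 b (1.47) or under quantile normalization (1.12) and was 0.91 with the date as a covariate, OK107 against whole brain did not pass without OK107 a (-1.07), and Tdc2 against whole brain passed without Tdc2 b (0.85). In a fit with no filter on low values all 5 of these calls of Hsp23 were lost, at the same log2 differences.

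Hsp67Ba (CG4167) shared the split of Hsp23 between OK107 and Tdc2. Its levels were 4.47 and 4.56 FPKM in OK107, 16.5 and 14.1 FPKM in Tdc2, 3.91 FPKM in R57C10 and 15.8 FPKM in whole brain. The libraries fell into a high set of Tdc2 and whole brain and a low set of OK107 and R57C10, with nothing between them. OK107 was lower than Tdc2 (-1.56, SE 0.13, adjusted p = 0.00195) and whole brain (-1.61, SE 0.16, adjusted p = 0.00149). Tdc2 was higher than R57C10 by 1.73 (SE 0.16, adjusted p = 0.00301), and R57C10 was lower than whole brain (-1.78, SE 0.19, adjusted p = 0.00189). Within the sets no difference passed, at 0.17 for OK107 minus R57C10 (SE 0.16, adjusted p = 0.471) and -0.05 for Tdc2 minus whole brain (SE 0.16, adjusted p = 0.802). The fat body markers listed above were higher in Tdc2 and whole brain too, as Hsp23 and Hsp67Ba were. Against R57C10, OK107 had 3 of 5 fat body markers lower and 0 higher. It had 6 of 7 glial and 5 of 7 photoreceptor markers higher, with 0 lower. In the same comparison Hsp23 was higher and Hsp67Ba did not pass. Markers of photoreceptors (7 of 7), hemocytes (4 of 4) and glia (5 of 7, with 1 the other way) were also higher in Tdc2 than in OK107. The part of these cell types in the results of Hsp23 and Hsp67Ba was not tested.

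Hsp67Bc (CG4190), which works with the co-chaperone Starvin (stv) in the clearance of misfolded proteins by autophagy, set whole brain apart from all tagged nuclei. It was at 6.43 and 4.64 FPKM in OK107, 3.63 and 3.36 FPKM in Tdc2, 1.55 FPKM in R57C10 and 58.3 FPKM in whole brain. Whole brain exceeded the mean of OK107 10.5 times, that of Tdc2 16.7 times and R57C10 37.7 times. The log2 differences from whole brain were -3.20 for OK107 (SE 0.21, adjusted p = 0.000653), -3.72 for Tdc2 (SE 0.21, adjusted p = 0.000933) and -4.54 for R57C10 (SE 0.25, adjusted p = 0.000533). In Tdc2 against whole brain 0.0937% of all genes had a lower difference than Hsp67Bc. Among the tagged nuclei the order was OK107, Tdc2, R57C10. OK107 exceeded R57C10 by 1.34 (SE 0.22, adjusted p = 0.0163). The excess of Tdc2 over R57C10 was 0.82 (SE 0.22, adjusted p = 0.0398), and OK107 minus Tdc2 was 0.53 (SE 0.18, adjusted p = 0.0598). Both calls against R57C10 were lost under quantile normalization (0.83 for OK107 and 0.56 for Tdc2) and with no filter, that of OK107 also without OK107 a (1.15), and that of Tdc2 also under median centring (0.67), a pseudocount of 5 (0.37), spike-in status as a covariate (0.70) and without either OK107 library (0.82 each). OK107 against Tdc2 passed without Tdc2 a (0.57) and with spike-in status (0.53). The 7 glial markers with values were all lower in each of R57C10 and Tdc2 than in whole brain, and 6 of the 7 were lower in OK107 (1 did not pass), as Hsp67Bc was. Their part in its level was not tested.

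Hsp27 (CG4466), which is found in the nucleus of many cells, and l(2)efl (CG4533), a relative of mammalian alpha B-crystallin, varied least. Hsp27 was at 4.01 and 3.86 FPKM in OK107, 4.16 and 5.16 FPKM in Tdc2, 2.30 FPKM in R57C10 and 4.90 FPKM in whole brain. Only R57C10 stood apart, below all others. Tdc2 was higher than R57C10 by 0.77 (SE 0.18, adjusted p = 0.0276), and R57C10 was lower than whole brain (-0.84, SE 0.21, adjusted p = 0.023). Neither call held without OK107 a or without OK107 b (0.77 and -0.84 in each case), with no filter or under quantile normalization (0.54 and -0.58), and that against whole brain was lost under median centring too (-0.50). OK107 minus R57C10 was 0.58 (SE 0.18, adjusted p = 0.0733) and passed without either Tdc2 library (0.58 each) and with the date as a covariate (0.83). OK107 minus Tdc2 was -0.19 (SE 0.15, adjusted p = 0.319), OK107 minus whole brain -0.26 (SE 0.18, adjusted p = 0.282) and Tdc2 minus whole brain -0.06 (SE 0.18, adjusted p = 0.783).

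The levels of l(2)efl were 4.17 and 4.79 FPKM in OK107, 2.95 and 3.88 FPKM in Tdc2, 2.64 FPKM in R57C10 and 2.53 FPKM in whole brain, a range of 1.89 times. Both OK107 libraries were above the other 4. Of its 6 differences, OK107 minus whole brain passed (0.63, SE 0.20, adjusted p = 0.0491), and it was lost without OK107 a (0.71) or OK107 b (0.55), under median centring (0.52) or quantile normalization (0.24), and with no filter. The others lay between 0.04 for R57C10 minus whole brain (SE 0.24, adjusted p = 0.882) and 0.59 for OK107 minus R57C10 (SE 0.20, adjusted p = 0.0912). With the date as a covariate, OK107 minus R57C10 (0.89), OK107 minus Tdc2 (0.47) and Tdc2 minus whole brain (0.47) passed. They also passed without either Tdc2 library (0.59 each), without Tdc2 b (0.47) and without Tdc2 a (0.47), in the same order. St3, the gene whose exon overlaps l(2)efl on the opposite strand, was at 29.2 and 37.1 FPKM in OK107, 18.5 and 19.0 FPKM in Tdc2, 30.0 FPKM in R57C10 and 30.6 FPKM in whole brain. It was well above l(2)efl in every library, and its part in the values of l(2)efl was not tested.

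Hsp68 (CG5436), a heat-inducible member of the Hsp70 family, was highest in whole brain. It was at 6.20 and 6.54 FPKM in OK107, 4.01 and 2.74 FPKM in Tdc2, 1.94 FPKM in R57C10 and 11.5 FPKM in whole brain. The order was whole brain, OK107, Tdc2, R57C10, with no overlap between groups. The log2 differences from whole brain were -0.76 for OK107 (SE 0.22, adjusted p = 0.0375), -1.52 for Tdc2 (SE 0.22, adjusted p = 0.00588) and -2.08 for R57C10 (SE 0.26, adjusted p = 0.00292). OK107 was higher than R57C10 by 1.32 (SE 0.22, adjusted p = 0.018) and than Tdc2 by 0.77 (SE 0.18, adjusted p = 0.0236), and Tdc2 minus R57C10 was 0.56 (SE 0.22, adjusted p = 0.113). All calls of OK107 were lost without OK107 a (1.36 against R57C10, 0.80 against Tdc2 and -0.72 against whole brain) and without OK107 b (1.29, 0.74 and -0.79 in the same order), and Tdc2 against R57C10 passed without Tdc2 b (0.77). With no filter every call of Hsp68 but that of R57C10 against whole brain was lost, the calls of OK107 against R57C10 and Tdc2 were lost under quantile normalization (0.81 and 0.51), that against Tdc2 under median centring (0.47), and that against whole brain with a pseudocount of 0.1 (-0.84). CG6000, whose exon overlaps Hsp68 on the opposite strand, was also highest in whole brain, at 26.0 FPKM against 10.6 to 16.8 FPKM in the tagged nuclei, and its part in the level of Hsp68 was not tested.

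Hsc70-3 (CG4147) had the most RNA of the 10 genes in every library but whole brain, where Hsp83 was above it. Its levels were 943 and 855 FPKM in OK107, 246 and 252 FPKM in Tdc2, 390 FPKM in R57C10 and 296 FPKM in whole brain. The OK107 pair was far above the rest, and R57C10 was above whole brain and the Tdc2 pair. OK107 was higher than R57C10 by 1.20 (SE 0.12, adjusted p = 0.00604), than Tdc2 by 1.85 (SE 0.10, adjusted p = 0.000848) and than whole brain by 1.60 (SE 0.12, adjusted p = 0.000835). Tdc2 was lower than R57C10 (-0.64, SE 0.12, adjusted p = 0.0154), a call lost without either OK107 library and with no filter (-0.64 in each). R57C10 minus whole brain was 0.40 (SE 0.14, adjusted p = 0.0616) and passed without either Tdc2 library and with the date as a covariate (0.40 in each), under median centring (0.73) and under quantile normalization (0.84). Tdc2 minus whole brain was -0.25 (SE 0.12, adjusted p = 0.143) and passed without Tdc2 b (-0.26).

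Hsc70-3 was the only member with values for more than 2 isoforms. Isoform RC carried between 83.0% and 89.1% of the FPKM of the gene in every library, so the gene's profile is mostly that of RC. Isoform RB, a small share, differed more. It was at 40.7 and 37.8 FPKM in OK107, 2.88 and 4.03 FPKM in Tdc2, 10.2 FPKM in R57C10 and 3.03 FPKM in whole brain. These are 4.32% and 4.43% of the gene in OK107, 1.17% and 1.60% in Tdc2, 2.62% in R57C10 and 1.02% in whole brain. The share of RB was thus highest in both OK107 libraries and lowest in whole brain. Isoform RA ran the other way in share, at 7.03% and 7.53% in OK107, 8.85% and 12.5% in Tdc2, 8.56% in R57C10 and 15.6% in whole brain. Isoform shares were not tested. Hsp22, Hsp23 and l(2)efl have 2 isoforms each in the table, with 1 of them left without a value for Hsp22 and Hsp23, and the other 6 members have 1.

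**Figure D2:**
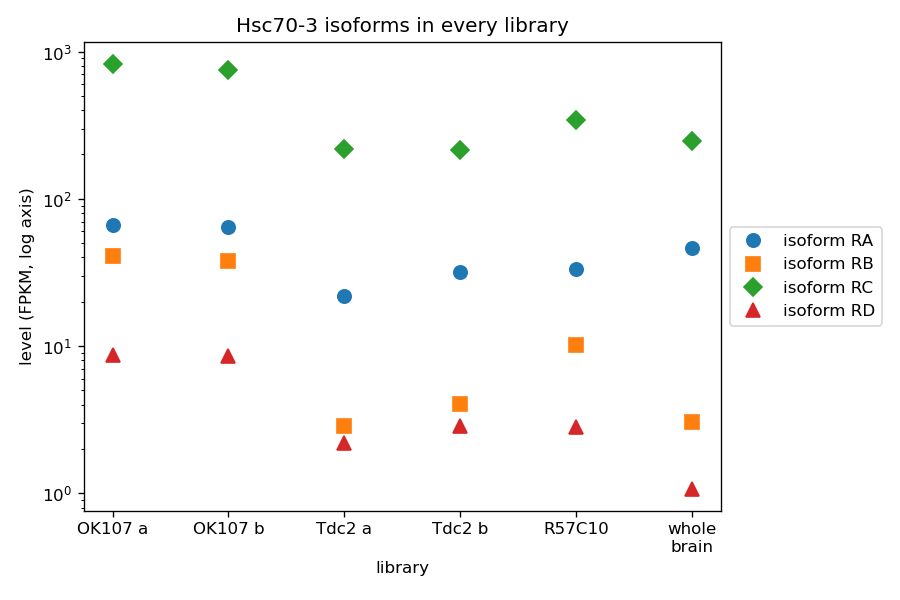
Level of the 4 isoforms of Hsc70-3 (FPKM, log axis) in every library, each point a library and isoform. RC is the main isoform throughout, and RB is at 40.7 and 37.8 FPKM in OK107 against 2.88 to 10.2 FPKM in the other libraries.

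Hsp83 (CG1242), the Hsp90 gene, is expressed in nearly all cells and was abundant in all libraries. It was at 181.8 and 181.0 FPKM in OK107, 223 and 233 FPKM in Tdc2, 108 FPKM in R57C10 and 386 FPKM in whole brain. The order was whole brain, Tdc2, OK107, R57C10, with no overlap between groups and very close pairs. R57C10 was lower than whole brain (-1.83, SE 0.13, adjusted p = 0.000842), as were OK107 (-1.08, SE 0.11, adjusted p = 0.00151) and Tdc2 (-0.76, SE 0.11, adjusted p = 0.00568). Tdc2 was higher than R57C10 by 1.07 (SE 0.11, adjusted p = 0.00336). OK107 exceeded R57C10 by 0.74 (SE 0.11, adjusted p = 0.0129), and OK107 was lower than Tdc2 (-0.33, SE 0.09, adjusted p = 0.0347). The calls of OK107 against R57C10 and Tdc2 were lost without OK107 a (0.74 and -0.33) and without OK107 b (0.75 and -0.32). The call against R57C10 was also lost after median centring (0.30), and the call against Tdc2 with plain limma and with spike-in status as a covariate (-0.33 in both).

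**Figure D3:**
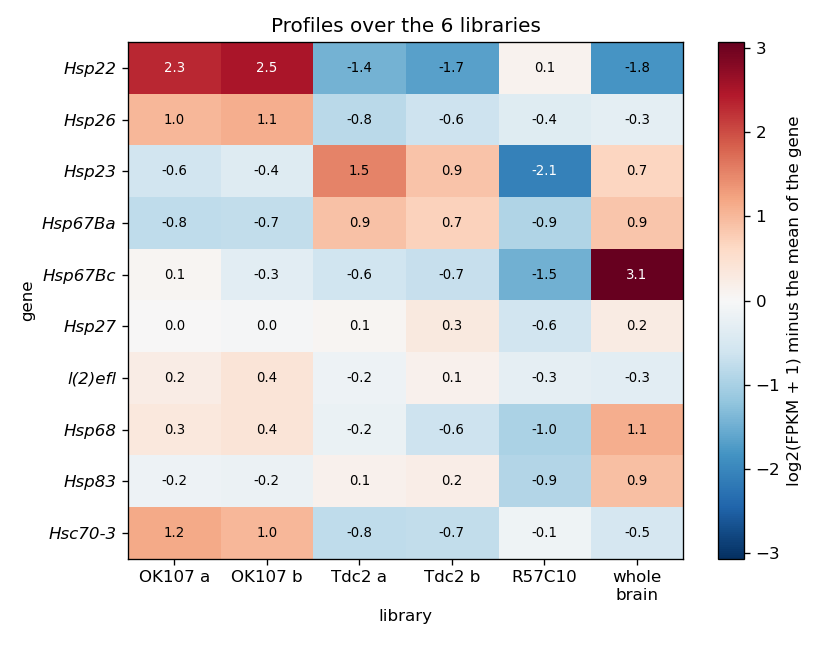
Profile of each gene over the 6 libraries, as log2(FPKM + 1) minus the mean of the gene, with red above and blue below that mean. Hsp22 spans from 2.49 in OK107 b to -1.80 in whole brain, Hsp67Bc reaches 3.06 in whole brain, and Hsp27 and l(2)efl stay close to 0.

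The 10 genes did not move as a block. R57C10 was the lowest library for 6 of them, against 32.6% of the 9605 genes tested over all libraries. It was the highest for 0, against 14.6% of genes. Whole brain was the highest library for 3 members, against 34.3% of genes. An OK107 library was the highest for 4 members (OK107 a for 1 and OK107 b for 3), against 34.7% of genes.

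OK107 against R57C10 asks how Kenyon cells differ from neurons at large. Of the 10 members 7 were higher in OK107, led by Hsp22, Hsp23, Hsp26, Hsp67Bc and Hsp68, 0 were lower and 3 (Hsp27, Hsp67Ba and l(2)efl) did not pass. In the same comparison 24.9% of the 9585 genes tested passed, 21.4% higher and 3.56% lower. With the libraries scaled to a common median (median centring) 8.26% of all genes were higher and 16.3% lower, with 6 members higher and 0 lower, and under quantile normalization 7.92% were higher and 6.92% lower. The median difference was 1.26 over the members and 0.30 over all genes, and all 10 members had a positive difference, against 73.7% of all genes. The members were chosen with Hsp22, Hsp26 and Hsc70-3 already known as high in OK107. Here and in the other comparisons of OK107 their counts and medians are thus a description. Under quantile normalization the median of all genes was -0.05, and 4 members passed, all higher (Hsp22, Hsp26, Hsp83 and Hsc70-3). Hsp67Ba, under the median of all genes as deposited, changed sign under 3 alternatives and never passed. The count was also 4 with no filter, without OK107 a and without OK107 b. OK107 and R57C10 share no date, and a date effect could be estimated only from the Tdc2 pair. With date as a covariate 9 members passed, Hsp22 at 2.07, Hsp26 at 1.60, Hsc70-3 at 1.23 and Hsp23 at 0.91 among them. In that fit the spread came from the OK107 pair only, so its count cannot be compared with that of the main fit. Among libraries with spike-in RNA, OK107 b minus R57C10 was 2.38 for Hsp22, 1.46 for Hsp26 and 1.13 for Hsc70-3.

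Among the partners of these genes the chaperones of the endoplasmic reticulum, where Hsc70-3 works, were higher in OK107 than in R57C10 in 10 of 13 cases, with 0 lower and a median of 0.95 (5 of 13 passed as higher under median centring and 9 under quantile normalization). CaBP1, a protein disulfide isomerase, was at 60.2 and 56.2 FPKM in OK107 against 22.5 FPKM in R57C10 (1.33, SE 0.12, adjusted p = 0.00476). Gp93, the Hsp90 of the endoplasmic reticulum, was at 117 and 109 FPKM against 43.9 FPKM (1.34, SE 0.13, adjusted p = 0.00542), and ERp60, another disulfide isomerase, was higher by 1.17 (SE 0.12, adjusted p = 0.00604). Both OK107 libraries were above R57C10 for these genes. Glial markers were higher in OK107 in 6 of 7 cases (median 0.85) and photoreceptor markers in 5 of 7 (median 0.99). Under median centring 3 glial markers were higher, and 2 photoreceptor markers were higher and 1 lower. Under quantile normalization 2 glial and 3 photoreceptor markers were higher. Fat body markers were lower in OK107 in 3 of 5 cases, and muscle markers higher in 1 of 10. The part of these cell types in the differences of the chaperones was not tested. The regulators of the unfolded protein response, which senses misfolded protein in that compartment, did not pass in 5 of 5 cases. Of the cytosolic chaperonin subunits 3 of 8 were higher, T-cp1 (1.07, SE 0.17, adjusted p = 0.015), Cct5 (1.00) and CG5525 (0.84), and none of the 3 passed under median centring or quantile normalization. In the list of J proteins and Hsp70 partners 1 of 9 was higher, CG7130, a J-domain protein gene, at 10.9 and 10.2 FPKM in OK107 against 2.34 FPKM in R57C10 (1.79, SE 0.17, adjusted p = 0.00505). CG1416 of the Hsp90 partners (1 of 7), CG11267 (the mitochondrial Hsp10 gene) of the mitochondrial chaperones (1 of 6) and CG14207 of 3 other small heat shock genes tested (0.49) were higher, with none lower in these lists, but these 3 genes too did not pass under either scaling. Hsf did not pass, and neither did the Hsc70 relatives (0 of 3). Of all genes 21.4% were higher and 3.56% lower in OK107 than in R57C10.

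Tdc2 against R57C10 asks the same of octopaminergic neurons. Hsp23, Hsp67Ba, Hsp83, Hsp67Bc and Hsp27 were higher in Tdc2 (5 of 10), Hsp22 and Hsc70-3 were lower (2 of 10) and 3 did not pass. Of all genes 35.9% passed, 20.6% higher and 15.2% lower (18.6% higher and 23.7% lower under median centring, 17.0% and 20.6% under quantile normalization). The members' median was 0.66 and that of all genes 0.03. Median centring left 4 members higher and 3 lower, and quantile normalization 3 higher and 2 lower. The count was 3 with no filter and 4 without OK107 a or OK107 b. Tdc2 b and R57C10 share the later date and spike-in RNA, and between them the difference was 2.92 for Hsp23, 1.62 for Hsp67Ba, -1.77 for Hsp22 and -0.63 for Hsc70-3. Markers of other cell types were higher in Tdc2 as well, with photoreceptors at 7 of 7 (median 2.46), hemocytes at 4 of 4, glia at 6 of 7, fat body at 4 of 5 and muscle at 6 of 10 markers, and none lower in these lists. Their part in the differences of the members was not tested. Of the endoplasmic reticulum chaperones 6 of 13 were higher and 1 lower (5 and 4 under median centring, 6 and 2 under quantile normalization): Crc (calreticulin) was higher by 0.88 (SE 0.12, adjusted p = 0.00714) and Cnx99A (calnexin) by 0.66, while CG10420 (now Sil1), the exchange factor of BiP, was lower (-0.82, SE 0.14, adjusted p = 0.0122). Ire1, a sensor of the unfolded protein response, was lower (-0.98, SE 0.16, adjusted p = 0.0108) and the other 4 regulators did not pass. Of the J proteins DnaJ-1 (0.74) and Droj2 (0.88) were higher and CG7130 was lower (-1.15), of 9 tested. The small heat shock gene CG4461, a neighbour of Hsp22 and Hsp26, was higher by 1.23 at low levels (3.81 and 3.88 FPKM in Tdc2 against 1.07 FPKM in R57C10). The Hsp90 partners (7), chaperonin subunits (8) and mitochondrial chaperones (6) had 0 that passed. Of the 6 Hsp70 copies 4 were lower in Tdc2, by log2 differences between -1.25 and -1.31, and the other 2 did not pass, but as nearly identical genes among which reads can be split their single values are uncertain.

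**Figure D4:**
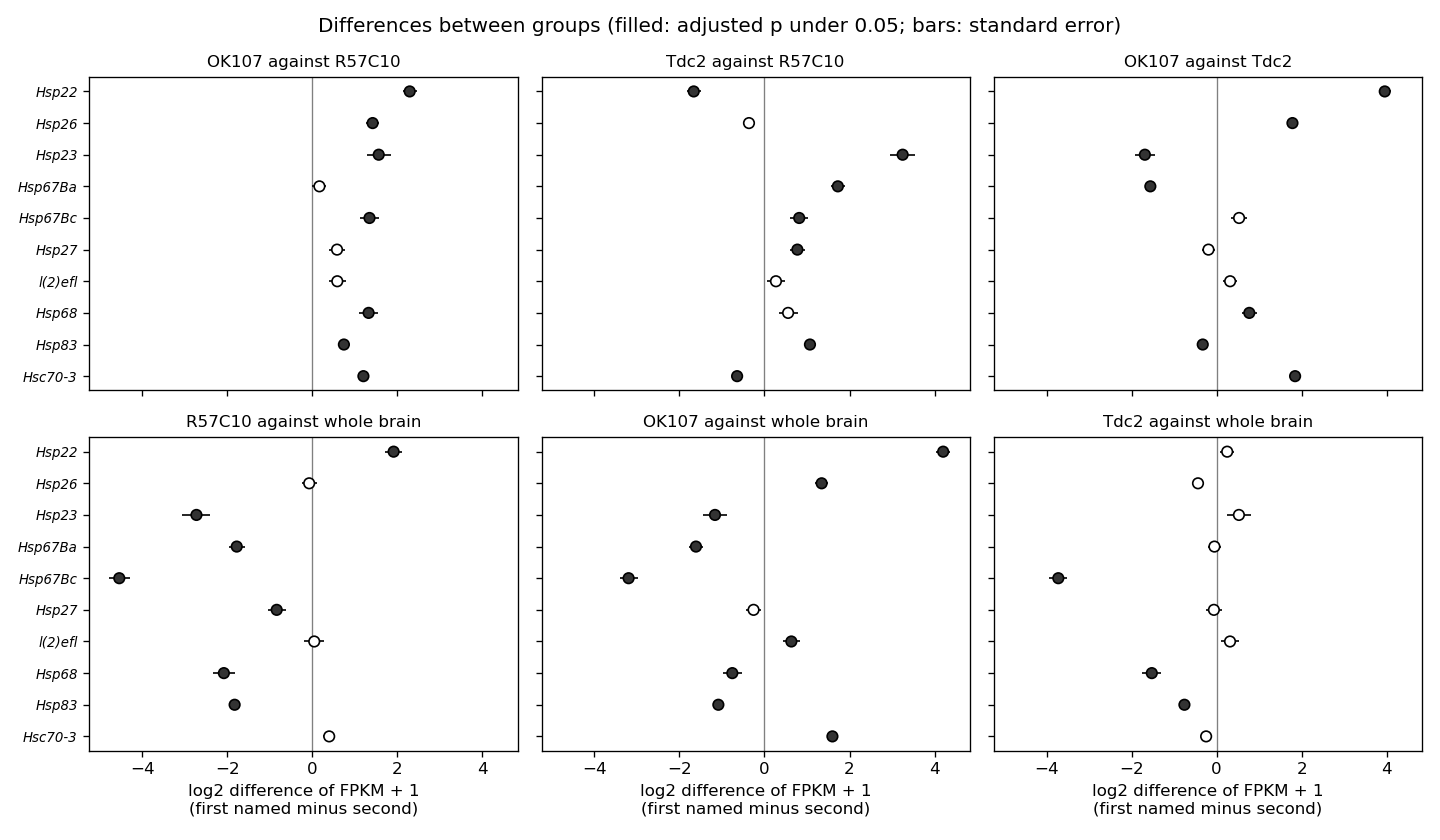
Log2 difference of FPKM + 1 of each gene in the 6 comparisons, the group named first minus the second, with bars of 1 standard error (shorter than the symbol for some genes) and filled symbols where the adjusted p was under 0.05. All 10 symbols lie right of 0 for OK107 against R57C10, and Hsp22 and Hsp23 lie on opposite sides for OK107 against Tdc2, at 3.95 and -1.69.

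OK107 against Tdc2 sets the selective lines against each other, each with 2 libraries. Hsp22 (3.95), Hsc70-3 (1.85), Hsp26 (1.78) and Hsp68 (0.77) were higher in OK107, and Hsp23 (-1.69), Hsp67Ba (-1.56) and Hsp83 (-0.33) were lower. These are 4 and 3 of the 10 members, while 48.3% of all genes passed, 34.3% higher and 14% lower (14.2% higher and 21.6% lower under median centring, 18.9% and 18.5% under quantile normalization). The median was 0.42 over the members and 0.28 over all genes. With median centring 3 members were higher and 4 were lower, with Hsp27 then passing as lower (-0.49). Within the earlier date, OK107 a and b minus Tdc2 a was 3.84 for Hsp22, 1.88 for Hsp26, 1.86 for Hsc70-3, -2.01 for Hsp23 and -1.66 for Hsp67Ba. Photoreceptor markers summed to 1234 and 1220 FPKM in OK107 against 5483 and 4780 FPKM in Tdc2, with 7 of 7 lower in OK107, and muscle markers to 126 and 128 FPKM against 198 and 401 FPKM, with 5 of 10 lower. Fat body markers were lower in OK107 in 5 of 5 cases and glial ones in 5 of 7 (1 higher), and the part of these cell types in the differences of Hsp23 and Hsp67Ba was not tested.

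The endoplasmic reticulum chaperones were higher in OK107 than in Tdc2 in 7 of 13 cases and lower in 1. CG10420 was at 36.1 and 37.7 FPKM in OK107 against 9.47 and 10.9 FPKM in Tdc2 (1.76, SE 0.12, adjusted p = 0.00117). CaBP1 was higher by 1.18 (SE 0.10, adjusted p = 0.00169) and P58IPK, a J protein of the compartment, by 1.05 (SE 0.09, adjusted p = 0.00194). Of the regulators of the unfolded protein response 3 of 5 were higher, Ire1 at 77.6 and 76.6 FPKM against 29.0 and 36.2 FPKM (1.22, SE 0.13, adjusted p = 0.00322), the kinase gene PEK (0.82) and the transcription factor gene Xbp1 (0.42), the last of which did not pass under either scaling. Hsf, the gene of the heat shock factor, was higher (0.76, SE 0.11, adjusted p = 0.0057), at 26.7 and 28.8 FPKM in OK107 against 16.4 and 15.4 FPKM in Tdc2. CG7130 differed most among the J proteins and Hsp70 partners (2.94, SE 0.13, adjusted p = 0.000686), a list with 3 higher and 3 lower of 9. The Hsp90 partners had 3 higher of 7 (unc-45 0.78, Cdc37 1.11 and CG1416 0.85), the chaperonin subunits 3 of 8 and the mitochondrial chaperones 2 of 6, with none lower. Of all genes 34.3% were higher and 14% lower. The medians of these 3 lists, 0.26, 0.11 and 0.20, lay under the median of all genes (0.28). Under either scaling 2 Hsp90 partners, 1 chaperonin subunit and 0 mitochondrial chaperones were higher. All 6 Hsp70 genes were higher, by 0.70 to 1.28, but only 1 under either scaling, and their single values are uncertain for the reason given above.

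R57C10 against whole brain asks how tagged neuronal nuclei differ from the intact brain with its glia. Hsp22 was higher in R57C10, and Hsp67Bc, Hsp23, Hsp68, Hsp83, Hsp67Ba and Hsp27 were lower. These are 1 and 6 of the 10 members. Of the 9605 genes tested here 55.1% passed, 22.3% higher and 32.8% lower (32.0% higher and 21.5% lower under median centring, 25.6% and 21.5% under quantile normalization). The median was -1.31 over the members and -0.22 over all genes, and 3 members had a positive difference, against 41.9% of genes. After median centring, and after quantile normalization, 2 members were higher, Hsc70-3 having joined Hsp22 at 0.73 and 0.84, and 5 were lower. Both libraries carry the later date and spike-in RNA. Photoreceptor markers were higher in R57C10 in 4 of 7 cases (0 lower, median 1.05), and glial markers were lower in 7 of 7. Against whole brain, photoreceptor markers were also higher in OK107 (6 of 7, 1 lower) and in Tdc2 (6 of 7, 0 lower). The whole brain was dissected and not bound to beads. In R57C10 against whole brain the effects of that preparation, of the RNA fraction and of cell types differing in either direction cannot be told apart.

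Most partners of the cytosolic chaperones had less RNA in R57C10 than in whole brain, where 32.8% of all genes were lower and 22.3% higher. Of the J proteins and Hsp70 partners 8 of 9 were lower and 1 higher (6 of 9 lower under median centring and 5 under quantile normalization). DnaJ-1, the main cytosolic J protein gene, was at 59.9 FPKM in R57C10 against 215 FPKM in whole brain (-1.83, SE 0.14, adjusted p = 0.00102), Droj2 at 74.1 against 337 FPKM (-2.17, SE 0.18, adjusted p = 0.00129) and Tpr2 was lower as well (-1.07, SE 0.14, adjusted p = 0.00296). Of the Hsp90 partners 6 of 7 were lower, among them the immunophilin gene FKBP59 (-2.40, SE 0.30, adjusted p = 0.00298), CG16817 (now p23, -2.13) and Sgt1 (-1.23), and under either scaling 5 of 7 were. Chaperonin subunits were lower in 6 of 8 cases (4 under median centring and 3 under quantile normalization) and mitochondrial chaperones in 4 of 6, with CG11267 at 56.1 FPKM in R57C10 against 361 FPKM in whole brain (-2.67, SE 0.28, adjusted p = 0.00205). The endoplasmic reticulum chaperones were mixed, with 1 higher (CG10420, 1.27, SE 0.17, adjusted p = 0.0033), 5 lower (prtp -0.92 and ERp60 -0.80 among them) and 7 that did not pass, while under either scaling 2 were higher and 2 lower. PEK (0.76) and Ire1 (0.64) were higher among 5 regulators of the unfolded protein response. The Hsp70 copies went against this direction: 4 of 6 were higher, with Hsp70Bb at 325 FPKM in R57C10 against 5.86 FPKM in whole brain (5.57, SE 0.27, adjusted p = 0.000426), and 2 were lower, calls that were lost under either scaling. Against whole brain 4 of 6 were higher in OK107 (0 lower) and in Tdc2 (1 lower) too, so this difference was shared by all tagged nuclei, and its source was not tested. Single values of these copies are uncertain, as reads can be split among them. Hsromega, a heat-inducible noncoding transcript kept in the nucleus, was higher (2.06, SE 0.58, adjusted p = 0.0317).

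**Figure D5:**
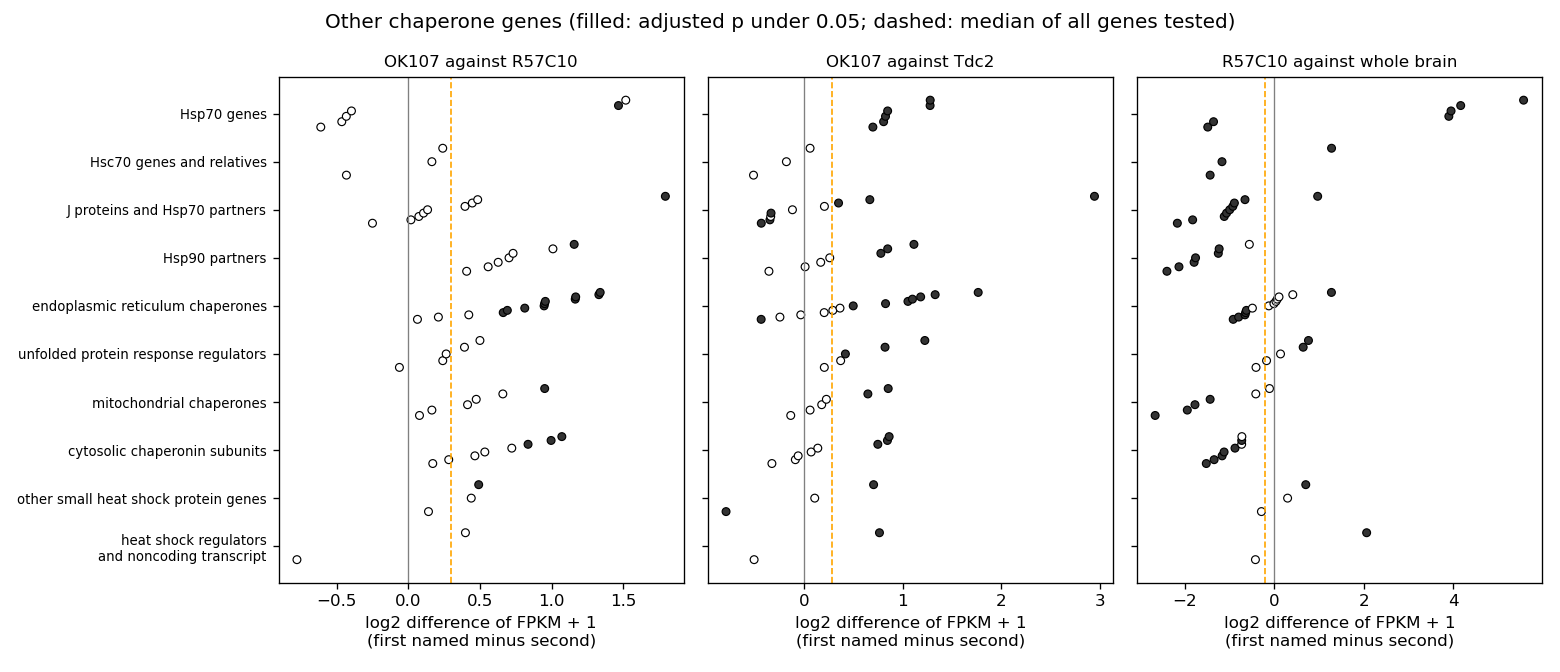
Log2 difference of FPKM + 1 (first named minus second) of the other chaperone genes by list in 3 comparisons, each point a gene, filled where the adjusted p was under 0.05, with the median of all genes tested as a dashed line. Of 13 endoplasmic reticulum chaperones 10 are filled and right of 0 for OK107 against R57C10, and 8 of 9 J proteins and Hsp70 partners are filled and left of 0 for R57C10 against whole brain.

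OK107 against whole brain and Tdc2 against whole brain share the whole brain library with the comparison above. In OK107, Hsp22 (4.20), Hsc70-3 (1.60), Hsp26 (1.34) and l(2)efl (0.63) were higher than in whole brain, 4 of 10, and Hsp67Bc (-3.20), Hsp67Ba (-1.61), Hsp23 (-1.16), Hsp83 (-1.08) and Hsp68 (-0.76) were lower, 5 of 10. Of all genes 53.5% passed, 31.5% higher and 22% lower, with a median of 0.10 against -0.51 over the members. The count was 6 with no filter and without OK107 a. In Tdc2, 0 members were higher and 3 were lower, Hsp67Bc (-3.72), Hsp68 (-1.52) and Hsp83 (-0.76), while 50.3% of all genes passed, 21.2% higher and 29.1% lower (28.5% higher and 20.2% lower under median centring). The members' count was not tested against that share. It rose with the date as a covariate and without either Tdc2 library, fits whose spread came from the OK107 pair only. Shares of all genes are not given for those fits, so the rise cannot be read as particular to the members. The endoplasmic reticulum chaperones were higher in OK107 than in whole brain in 8 of 13 cases and lower in 1, led by CG10420 (2.22, SE 0.14, adjusted p = 0.000629) and Gp93 (1.44), and higher in Tdc2 in 2 of 13 with 0 lower (CG2918, now Grp170, 0.52 and CG10420 0.46). All 7 Hsp90 partners and 8 of 9 J proteins and Hsp70 partners were lower in Tdc2 than in whole brain, as 3 of 7 and 7 of 9 were in OK107. In Tdc2 these became 5 and 7 under median centring, and 4 and 7 under quantile normalization.

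Among genes with a mean of at least 10 FPKM, the 3 nearest to each member were those with the smallest distance between profiles of log2(FPKM + 1) over the 6 libraries, each centred on its own mean. For Hsp22 they were ey (distance 0.60), the eye and mushroom body transcription factor gene near which the OK107 line is inserted, CG4726 (now MFS3, 0.61) and CG34402 (now Sol1, 0.63). The level of ey was 248 and 259 FPKM in OK107, 10.4 and 12.8 FPKM in Tdc2, 35.9 FPKM in R57C10 and 10.2 FPKM in whole brain, and like Hsp22 it was highest in OK107, next in R57C10 and low in Tdc2 and whole brain. For Hsp26 they were Tsp39D (0.23), CG40498 (0.29) and GXIVsPLA2 (0.35), and for Hsc70-3 CG40498 (0.28), the serotonin receptor gene 5-HT1B (0.31) and Bx (0.33). CG40498 was thus near to both, at 254.3 and 254.1 FPKM in OK107 against 78.3 to 103 FPKM in the other libraries. The nearest genes of Hsp67Ba were the ribosomal protein genes RpL5 (0.29), RpL7 (0.35) and RpL23A (0.36), and those of Hsp23 were the muscle protein gene Mp20 (0.58), CG8036 (0.67) and Ef1beta (0.68). For Hsp67Bc they were G-ialpha65A (0.88), CG12269 (0.90) and CG12926 (0.97). For Hsp68 the proteasome subunit gene Rpn6 (0.23), CG1416 (0.31) and CG34132 (0.31) were nearest, and for Hsp83 SP2637 (0.24), RpL24 (0.24) and CG17765 (0.27). Xbp1 was nearest to l(2)efl (0.19), and loqs to Hsp27 (0.19). These distances describe 6 libraries, carry no test and are not compared between members.

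The authors' deposited table compares single libraries and lists a q-value only for calls under 0.05. Shares of genes in this paragraph are of all 15551 fly genes, not of the genes that passed the filter on low values, as all 10 members did. They are thus not on the same footing as the shares above. Between OK107 b and R57C10 it lists 4 of the 10 members (7.65% of all genes), Hsp22, Hsp23, Hsp26 and Hsp68, with log2 fold changes in the authors' deposited table of 2.46, 1.87, 1.55 and 1.75 for OK107 b over R57C10. Between Tdc2 b and R57C10 the authors' deposited table lists 3 members (10.4% of all genes), with Tdc2 b over R57C10 at -2.02 for Hsp22 (q = 0.0469), 3.19 for Hsp23 (q = 1.69e-06) and 1.85 for Hsp67Ba (q = 0.0474). Between OK107 a and Tdc2 a the authors' deposited table lists 5 members (8.51% of all genes), with Tdc2 a over OK107 a, the reverse of the direction above, at -4.02 for Hsp22, 2.19 for Hsp23, -1.96 for Hsp26, 1.88 for Hsp67Ba and -1.94 for Hsc70-3. Between R57C10 and whole brain the authors' deposited table lists 3 members (10.2% of all genes), with whole brain over R57C10 at 5.23 for Hsp67Bc (q = 5.49e-06), 2.99 for Hsp23 (q = 0.000882) and 2.56 for Hsp68 (q = 0.0477). Between OK107 a and OK107 b the authors' deposited table lists 0 of the 10 members and 0.116% of all genes. Hsp22 and Hsp23 were thus listed in all 3 comparisons of tagged lines, and Hsp83, Hsp27 and l(2)efl in none of the 5.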

How the data were processed

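Nuclear RNA libraries were made with a NuGEN Ovation RNA-seq v2 kit and sequenced as 50-base reads, per the labels' protocols. The submitters' processing notes name CASAVA 1.8, TopHat 1.4.0, Cuffdiff 1.3.0, bedtools 2.15 and build dm3. FPKM per gene and isoform were estimated by the authors, and the table marks values as NA where none was given. The authors' deposited log2 fold changes between libraries hold placeholders for infinite values and were treated as a score, and their q-values (adjusted p-values) are listed only under 0.05. The table holds 6 libraries of the 7 labelled samples, and letters a and b name libraries whose replicate numbers the columns do not give. R57C10 is the group with fewer libraries than labelled replicates, and its library cannot be tied to either replicate. A further 4 FPKM columns per file, named for libraries already used, were not used.

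From FPKM, log2(FPKM + 1) was tested with limma (version 3.58.1, R version 4.3.3; eBayes with trend and robust settings, two-sided, Benjamini-Hochberg over all genes, threshold 0.05), keeping genes that reached 1 FPKM or more in 2 or more libraries. This scale understates differences of low genes. Tagged nuclei were fitted on 5 libraries (9585 genes) and comparisons with whole brain on 6 (9605 genes), with 2 residual degrees of freedom each. Whether libraries came from separate flies is not stated. Depth was estimated from FPKM steps of 5619 genes, and 58.5% to 65.7% of values lay within 0.2 of a whole read, too few to recover counts, so no count test was run. Of 69 distinct genes asked in the other chaperone lists 67 were matched, Hsc70-5 being in 2 lists. The annotation used for names, neighbours and overlaps is RefSeq Release 6 with Ensembl's BDGP6 gene models, another build than dm3, so no coordinates are given. The members, lists and rule for names (all members, 3 nearest genes each, up to 3 genes with the smallest p per list) were chosen with earlier results of these data known. Hsp22, Hsp26 and Hsc70-3 as high in OK107 were part of those results. Genes are named as in the table. Alternatives were 2 scalings, 2 pseudocounts (0.1 and 5), 2 filters (none, and 5 FPKM, which left out Hsp27 and l(2)efl, and Hsp67Bc among tagged nuclei), limma without trend and robust, all 4 groups in the fit, date and spike-in status as covariates, and leaving out each OK107 and Tdc2 library.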

Additional observations from a re-analysis of the deposited data

Results flagged for a closer look

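For Hsp22, Hsp26 and Hsc70-3 both OK107 libraries lay above the R57C10 library and both Tdc2 libraries below it. These genes are given here because of those positions, and their high level in OK107 was known from earlier results, so the values are a description. OK107 minus Tdc2 in the limma fit was 3.95 for Hsp22, 1.78 for Hsp26 and 1.85 for Hsc70-3. Tdc2 minus R57C10 passed for Hsp22 and Hsc70-3 but not for Hsp26 (-0.36, adjusted p = 0.121). The position of both lines relative to R57C10 rests on 1 R57C10 library. How large a share of all genes tested lies in such positions was not counted, so these genes are not shown to be unusual in this.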

How the results depend on the processing

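Over the 6 comparisons 40 of 60 member differences passed, 23 of these passed under every alternative run, and 0 changed sign. Of the 20 that did not pass, 5 changed sign under an alternative. The 7 members that passed in OK107 against R57C10 became 4 under quantile normalization, 4 with no filter and 4 to 9 when 1 library was left out. The 7 in Tdc2 against R57C10 became 3 with no filter and 4 to 9 with a library left out. The 3 in Tdc2 against whole brain became 5 with the date in the column names as a covariate and 3 to 7 with a library left out. Leaving out a library gave 5 to 8 in OK107 against Tdc2 (7), 6 to 9 in OK107 against whole brain (9) and 6 to 8 in R57C10 against whole brain (7). A lone library left in a pair is assumed to vary like the others. Without a Tdc2 library, and with the date as a covariate, the spread came from the OK107 pair only, with fewer residual degrees of freedom. That pair had the smaller median gap over all genes, so higher counts in these fits are no sign of firmer differences. Over all genes tested, OK107 against R57C10 gave 2388 calls, 868 with no filter, 1422 under quantile normalization, 544 without OK107 a and 481 without OK107 b. The causes of these moves were not tested. No paired analysis was possible because the columns carry no replicate numbers. The fits had 2 residual degrees of freedom and only 1 library each of R57C10 and whole brain. Each call of Hsp27 and l(2)efl, at about 49 to 353 implied reads, was lost under some alternatives. Their other differences did not pass in the main fit.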
